A study of Mus musculus with 6 samples.

Results

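Interferon-stimulated genes were examined in 3 MURC knockout and 3 wild-type samples of mouse left ventricle, 1 array each. MURC is an older name of cavin-4, the product of Cavin4, which coats caveolae in muscle cells. All 6 samples came from male C57BL/6 mice, aged 11, 11 and 13 weeks in knockout replicates 1, 2 and 3 and 13, 13 and 12 weeks in wild-type replicates 1, 2 and 3. The labels do not give the design of the knockout allele, nor state that each array came from a separate mouse, so p-values measure only the spread between these samples. Of 42 genes listed, 35 had a probe set with a single platform gene symbol, among 19938 such genes on the array, and a gene with several was read from its brightest. Of the others, 6 (Isg15, Gbp2, Gbp6, Igtp, H2-K1 and H2-D1) share their probe sets with other symbols and are not named from them, and Ifi44 is unnamed here. A filter on dim probe sets, at a mean log2 signal of 3.45, left 32 members for testing. They were 23 genes of the type I response, 3 of the group of IRF1 and immunity GTPases and 6 of class I presentation.

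Interferons are secreted proteins that warn cells of infection. Type I interferons signal through the receptor IFNAR and the kinases JAK1 and TYK2 to a transcription factor complex that holds STAT2 and IRF9 and binds the interferon-stimulated response element (ISRE) in front of its target genes. Interferon gamma signals through its own receptor to genes with a gamma-activated sequence (GAS), and raises IRF1, the guanylate-binding proteins and much of the machinery that loads peptides onto class I molecules of the major histocompatibility complex. Heart muscle, vessel and resident immune cells all keep a low constitutive level of these transcripts. In bulk tissue, fewer cells of a type and less RNA per cell cannot be told apart.

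The regulatory sequence that defines the family was looked up first. RefSeq windows of 300 bases, 250 before and 50 after the start of the gene on GRCm38.p6, were given for 32 of the 42 genes. The ISRE core, searched as TTTC, any 2 bases and TTTC again, or its reverse complement (GAAA, any 2 bases and GAAA), was in the window of 17 of these 32 genes, against 3.99% of the 27025 genes in the table. The 2 orientations were counted together, and overlapping matches were counted separately. By group, 12 of 20 type I genes, 4 of 5 in the group of IRF1 and GTPases and 1 of 7 class I genes held it. The GAS motif, TTCNNNGAA, which reads the same on both strands and may overlap an ISRE core, was in 8 of 32 windows, against 9.55% of all genes. The members were listed as interferon-stimulated genes, so a high share with the element is a description of the list.

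The 250 bases before the start are shown for B2m, Rsad2 and Gbp3, members with the highest mean signal among those described on every array that hold an ISRE core there, and for Ifit1, added after its values were seen because its arrays spread most. Capitals mark the ISRE core, and each sequence reads 5′ to 3′ along the gene's own strand.
B2m, chr2:122147437-122147686, + strand: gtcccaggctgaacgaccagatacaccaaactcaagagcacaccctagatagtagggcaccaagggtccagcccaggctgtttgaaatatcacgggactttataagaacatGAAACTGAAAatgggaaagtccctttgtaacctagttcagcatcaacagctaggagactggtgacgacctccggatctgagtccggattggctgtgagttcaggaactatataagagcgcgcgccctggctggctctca
Rsad2, chr12:26456453-26456702, - strand: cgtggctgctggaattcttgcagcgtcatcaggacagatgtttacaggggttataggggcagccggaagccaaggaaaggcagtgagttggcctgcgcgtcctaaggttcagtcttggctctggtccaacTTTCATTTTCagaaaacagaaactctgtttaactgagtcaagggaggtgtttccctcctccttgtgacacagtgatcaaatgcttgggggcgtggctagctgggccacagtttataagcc
Gbp3, chr3:142559794-142560043, + strand: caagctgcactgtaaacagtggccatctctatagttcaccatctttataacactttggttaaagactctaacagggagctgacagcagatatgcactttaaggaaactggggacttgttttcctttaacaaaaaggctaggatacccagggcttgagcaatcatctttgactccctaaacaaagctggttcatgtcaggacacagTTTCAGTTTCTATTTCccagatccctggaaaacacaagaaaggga
Ifit1, chr19:34640639-34640888, + strand: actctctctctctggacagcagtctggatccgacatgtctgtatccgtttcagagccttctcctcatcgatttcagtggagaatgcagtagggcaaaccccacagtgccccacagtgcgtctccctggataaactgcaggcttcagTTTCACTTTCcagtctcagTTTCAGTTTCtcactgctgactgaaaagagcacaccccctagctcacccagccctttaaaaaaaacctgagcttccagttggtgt
The core begins 139 bases before the start in B2m and 120 in Rsad2. Ifit1 has 2 separate copies, beginning 104 and 85 bases before the start. In Gbp3 the 2 copies, beginning at 45 and 39, overlap by the TTTC they share. Ifitm3 also holds the motif, but after its start, so it is not shown.

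The arrays followed their labels at the targeted gene, with Cavin4 at log2 signals of 5.38 to 5.74 for knockout and 8.07 to 8.75 for wild-type arrays. Array medians lay between 4.60 and 4.71, and 12 heart muscle genes had mean signals between 10.96 and 13.15, so the tissue carried its defining markers. Wild-type replicate 1 read slightly higher than the others over all tested probe sets, with a median deviation of 0.08 from each probe set's mean over 6 arrays. On the other 5 arrays that median lay between -0.02 and 0.00. Wild-type replicate 3, the array on which the results below turn, had -0.01.

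No interferon-stimulated gene differed between genotypes past the threshold. In limma, with p-values adjusted over all 24898 tested probe sets, 0 of 32 members passed, where 0.00402% of all probe sets did, namely the 1 probe set of Cavin4. At an unadjusted p under 0.05 there were likewise 0 higher and 0 lower, beside 4.71% and 9.02% of all probe sets, or 13.7% in either direction. The smallest adjusted p of a member was 0.411. Of the 32, 12 had a higher mean in the knockout and 20 a lower one, with a median log2 difference of -0.04, the same as the -0.04 over all tested probe sets. After quantile normalization the split was 18 higher and 14 lower, with a median of 0.01. Genotypes did not overlap in 1 member with higher and 2 with lower knockout values, where 6.12% and 12.9% of all probe sets did so. By group the median difference was -0.02 in the type I response (0.01 after quantile normalization), -0.13 in IRF1 and the GTPases and -0.07 in class I presentation.

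What set the arrays apart was 1 wild-type sample. Wild-type replicate 3 gave the highest of the 6 signals in 23 of 32 members, where it did so in 15.1% of all tested probe sets. Within the wild type it was the highest in 29 of 32, against 24.9% of all probe sets, and the lowest in 0. It lay above the mean of the other 2 wild-type arrays in 31 of 32 members, by a median of 0.46 on the log2 scale, while the median over all tested probe sets was -0.05. The distance was over 0.3 in 21 members, and in 6.17% of all tested probe sets. Knockout replicate 3 was the highest of its genotype in 19 of 32, where 34.6% of all probe sets had it so, with a median distance of 0.10. This pattern was noticed in these arrays and is given as a description, without a test.

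**Figure D1:**
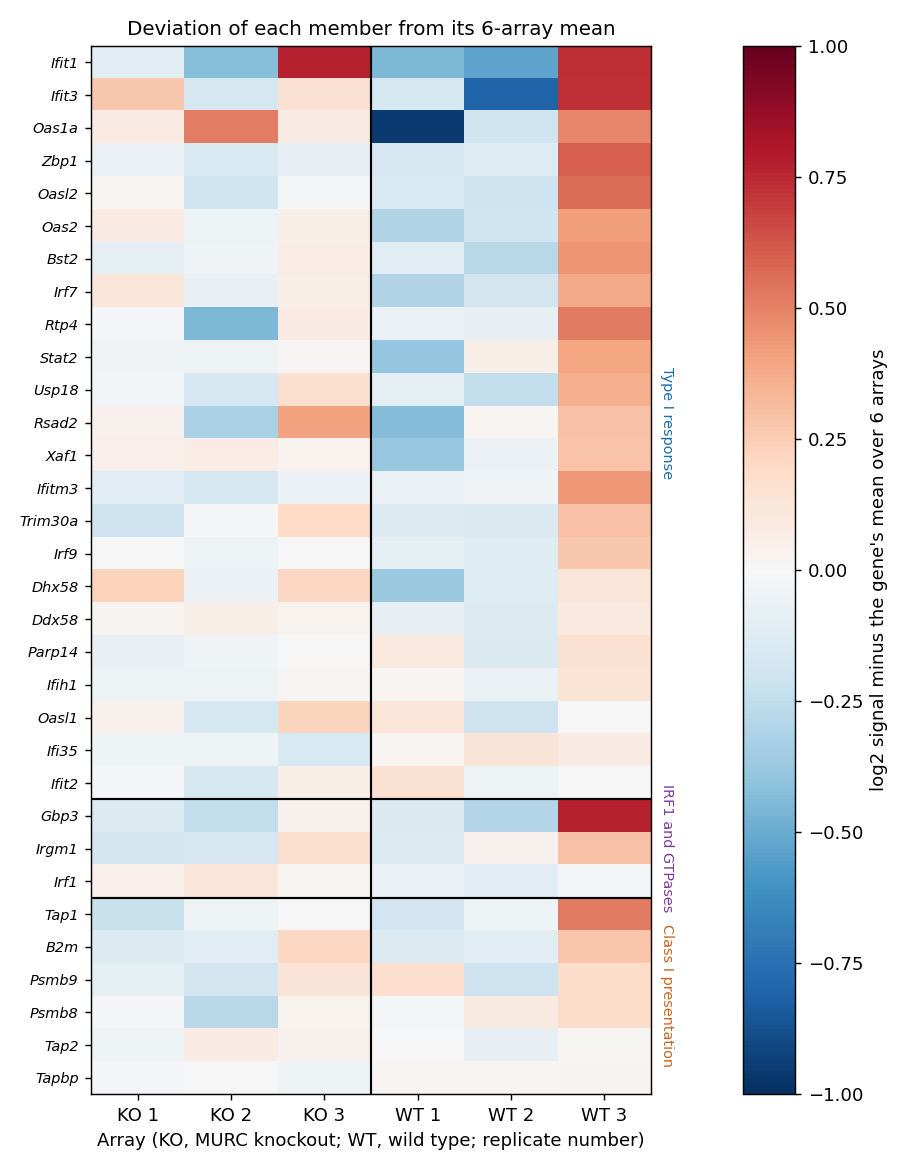
Heat map of the 32 tested members (rows, grouped by role and ordered within a group by the distance of wild-type replicate 3 from the other wild-type arrays) on the 6 arrays (columns). Colour is the log2 signal minus the gene's mean over 6 arrays, and the column of wild-type replicate 3 is the highest of the 6 in 23 rows.

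Averaged over the 32 members, the deviation from each gene's own mean was -0.02, -0.10 and 0.09 in knockout replicates 1, 2 and 3 and -0.15, -0.14 and 0.31 in wild-type replicates 1, 2 and 3. The first 2 wild-type arrays were thus the lowest of the 6 and the third wild-type array the highest, with all 3 knockout arrays between them. The mean per genotype was -0.01 ± 0.09 for knockout and 0.01 ± 0.26 for wild-type arrays (SD, n = 3), so the genotypes differed by far less than the wild-type arrays differed among themselves. The summed linear signal of the members ran from 4627 to 5370 on knockout and from 4615 to 6226 on wild-type arrays.

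Within the type I response, the 23 tested members deviated on average by 0.01, -0.10 and 0.10 in the knockout arrays and by -0.19, -0.16 and 0.34 in the wild-type arrays. The median SD of its members was 0.33 in the wild type and 0.10 in the knockout, and the wild-type SD was the larger in 20 of 23. Over all tested probe sets the median SDs were 0.13 and 0.11, and the wild-type SD was the larger in 57.5%. The group of IRF1 and the 2 tested GTPases had a like profile on average. Its mean deviations were -0.09, -0.10 and 0.08 on knockout arrays and -0.12, -0.12 and 0.35 on wild-type arrays. On wild-type replicate 3 only the 2 GTPases were above their own means, and Irf1 did not share the profile. The SD of the mean deviation over the wild-type arrays was 0.30 in the type I response and 0.27 in this group of 3 genes.

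Among the effectors, Ifit1, which binds viral RNA that lacks a host cap and whose ISRE copies are shown above, measured 5.61, 5.29 and 6.49 in knockout replicates 1, 2 and 3 and 5.27, 5.19 and 6.46 in wild-type replicates 1, 2 and 3. Replicate 3 was the highest array of each genotype, lying above the mean of the other 2 by 1.04 among knockout and 1.23 among wild-type arrays. The genotypes overlapped almost completely, with a log2 difference of 0.16 (SE 0.41, limma adjusted p = 0.906). Leaving out knockout replicate 3 gave -0.19, and leaving out wild-type replicate 3 gave 0.57.

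Ifit3, in the same gene cluster, measured 6.07, 5.62 and 5.95 on knockout arrays and 5.62, 5.0 and 6.53 on wild-type arrays. The wild-type arrays held both the lowest and the highest value, and knockout replicate 3 was not set apart as it was for Ifit1. The log2 difference of 0.16 (SE 0.35, limma adjusted p = 0.883) was 0.57 without wild-type replicate 3 and -0.20 without wild-type replicate 2. Ifit2, the third gene of the same cluster, did not share the pattern, as wild-type replicate 3 lay 0.05 below the mean of the other wild-type arrays.

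Rsad2 encodes viperin, an enzyme that makes a chain-terminating nucleotide. It measured 6.77, 6.40 and 7.13 on knockout arrays and 6.29, 6.75 and 7.02 on wild-type arrays. Replicate 3 was the highest array of each genotype, 0.55 and 0.50 above the mean of the others, and the genotype difference was 0.08 (SE 0.23, limma adjusted p = 0.915).

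Genes of the oligoadenylate synthetase family, whose catalytic members sense double-stranded RNA and activate RNase L, differed from each other in the same arrays. Oas1a measured 5.01, 5.44 and 5.01 on knockout arrays and 3.97, 4.73 and 5.42 on wild-type arrays, so that wild-type replicate 1 alone was far below the rest. It had the largest difference of any tested member, 0.45 higher in the knockout (SE 0.33, limma adjusted p = 0.629), and this fell to 0.08 without wild-type replicate 1. Oas2 and Oasl2 had wild-type replicate 3 above the other wild-type arrays by 0.67 and 0.74, and Oasl1 by only 0.04. Oas3 was below the filter, between 2.99 and 3.55 on all arrays, and was not tested.

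Regulators of the response were also highest in wild-type replicate 3 within their genotype. Irf7, the factor that amplifies type I interferon production, measured 6.31, 6.12 and 6.25 on knockout arrays and 5.89, 6.01 and 6.57 on wild-type arrays. Stat2 measured 6.26, 6.25 and 6.31 on knockout arrays and 5.91, 6.35 and 6.69 on wild-type arrays. In both genes the knockout arrays lay within 0.2 of each other, inside the span of the wild-type arrays, and wild-type replicate 3 was the highest of the 6. Their log2 differences were 0.07 (SE 0.17) and -0.04 (SE 0.18), with limma adjusted p of 0.90 and 0.944. Irf9, the DNA-binding partner of STAT2, and Usp18, a protease that damps signalling at IFNAR, had wild-type replicate 3 above the other wild-type arrays by 0.38 and 0.53.

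The genes of the cytosolic RNA sensors MDA5 and RIG-I showed little of the pattern. Ifih1, which encodes MDA5, and Ddx58, which encodes RIG-I, lay between 6.54 and 6.74 and between 6.02 and 6.25 on all 6 arrays, although both were highest in wild-type replicate 3. Dhx58, which encodes LGP2, a regulator of both, was a little more variable, at 4.40, 4.11 and 4.38 on knockout arrays and 3.80, 4.04 and 4.29 on wild-type arrays. In this gene wild-type replicate 3 lay 0.37 above the mean of the other wild-type arrays. The Dhx58 difference of 0.25 (SE 0.16, limma adjusted p = 0.545) was higher in the knockout with any 1 array left out, by 0.13 to 0.38.

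Among the remaining type I genes, Ifitm3, a membrane protein that blocks virus entry, measured 9.58, 9.51 and 9.63 on knockout arrays and 9.62, 9.65 and 10.12 on wild-type arrays. Rtp4, a transmembrane protein induced by interferon, measured 6.12, 5.68 and 6.21 on knockout arrays and 6.07, 6.05 and 6.65 on wild-type arrays. In Ifitm3 only wild-type replicate 3 stood away from the other 5 arrays, and in Rtp4 knockout replicate 2 was low as well. Their differences of -0.22 (SE 0.13) and -0.25 (SE 0.20) had limma adjusted p of 0.516 and 0.647, and without wild-type replicate 3 they were -0.06 in both.

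Ifi35, whose product interacts with NMI, was among the steadiest members. It measured 6.64, 6.64 and 6.53 on knockout arrays and 6.70, 6.81 and 6.76 on wild-type arrays, without overlap. The difference of -0.15 (SE 0.07) had the smallest p of all members tested and did not pass (limma adjusted p = 0.411). It lay between -0.18 and -0.12 with any 1 array left out, and wild-type replicate 3 was 0.01 above the other wild-type arrays.

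The other tested type I members were Bst2 (tetherin, which holds budding virus at the membrane), Zbp1 (a sensor of Z-form nucleic acid), Xaf1, Trim30a and Parp14. In these 5 genes wild-type replicate 3 exceeded the mean of the other wild-type arrays by 0.64, 0.75, 0.50, 0.44 and 0.18, and their genotype differences lay between -0.20 and 0.10, those of Bst2 and Trim30a changing sign after quantile normalization. Mx1 and Mx2, the dynamin-like antiviral GTPases, were below the filter at 2.54 to 2.88 and 3.16 to 3.64. C57BL/6 mice are known to carry a defective Mx1 allele. Wild-type replicate 3 was not the highest array for Oas3, Mx1 or Mx2, though signals this dim can hide a difference.

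The immunity GTPases, which attack the vacuoles of intracellular pathogens, behaved unlike IRF1. Gbp3 measured 6.57, 6.46 and 6.75 on knockout arrays and 6.56, 6.41 and 7.47 on wild-type arrays. Wild-type replicate 3 lay 0.985 above the mean of the other wild-type arrays, which fell among the knockout arrays. The log2 difference of -0.22 (SE 0.26, limma adjusted p = 0.774) was 0.11 without that array.

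Irgm1, a regulator of the related p47 GTPases, measured 5.89, 5.90 and 6.23 on knockout arrays and 5.93, 6.11 and 6.36 on wild-type arrays. As for Ifit1, replicate 3 was the highest in both genotypes, here by 0.34 over the mean of the other 2 arrays in each. The difference was -0.13 (SE 0.14, limma adjusted p = 0.761).

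Irf1, the transcription factor that interferon gamma induces directly and whose window held a GAS motif and no ISRE core, measured 6.44, 6.51 and 6.41 on knockout arrays and 6.32, 6.27 and 6.37 on wild-type arrays. It was the 1 member whose knockout arrays all lay above the wild type, by 0.13 on average (SE 0.07, limma adjusted p = 0.478). A second, dimmer Irf1 probe set had the opposite sign, and the mean of both gave -0.02.

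Class I presentation genes varied less than the type I response within the wild type. Their mean deviations were -0.09, -0.09 and 0.06 in knockout replicates 1, 2 and 3 and -0.03, -0.05 and 0.20 in wild-type replicates 1, 2 and 3. Replicate 3 was thus the highest array of each genotype, but the wild-type arrays spread over 0.25 where those of the type I response spread over 0.53. The median SD of class I genes was 0.16 in the wild type and 0.14 in the knockout, against 0.33 and 0.10 in the type I response. The wild-type SD was the larger in 3 of 6 class I genes.

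B2m, the light chain of every class I molecule, measured 10.68, 10.71 and 11.02 on knockout arrays and 10.68, 10.71 and 11.09 on wild-type arrays. The arrays of the genotypes were nearly equal number for number, with replicate 3 higher by 0.33 and 0.40. The genotype difference was -0.02 (SE 0.13, limma adjusted p = 0.96), and 0.01 after quantile normalization. Tap1, a subunit of the transporter that carries peptides into the endoplasmic reticulum, measured 5.82, 5.99 and 6.04 on knockout arrays and 5.85, 6.00 and 6.56 on wild-type arrays. Here wild-type replicate 3 alone stood out, by 0.64, and the difference of -0.19 (SE 0.18, limma adjusted p = 0.717) was 0.03 without it. Its partner subunit gene Tap2 and Tapbp, which encodes the peptide-loading factor tapasin, hardly varied. Wild-type replicate 3 exceeded the other wild-type arrays by 0.05 and 0.01, and the genotype differences were 0.05 and -0.04, the latter changing sign after quantile normalization.

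The immunoproteasome genes Psmb8 and Psmb9, whose products cut proteins into peptides suited to class I, followed neither pattern closely. Psmb8 measured 6.29, 6.03 and 6.34 on knockout arrays and 6.29, 6.40 and 6.49 on wild-type arrays. Psmb9 measured 6.47, 6.38 and 6.69 on knockout arrays and 6.73, 6.36 and 6.75 on wild-type arrays. In Psmb8 the low array was knockout replicate 2, and in Psmb9 each genotype held both low and high arrays. The log2 differences were -0.17 (SE 0.11) and -0.10 (SE 0.13), with limma adjusted p of 0.539 and 0.798.

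**Figure D2:**
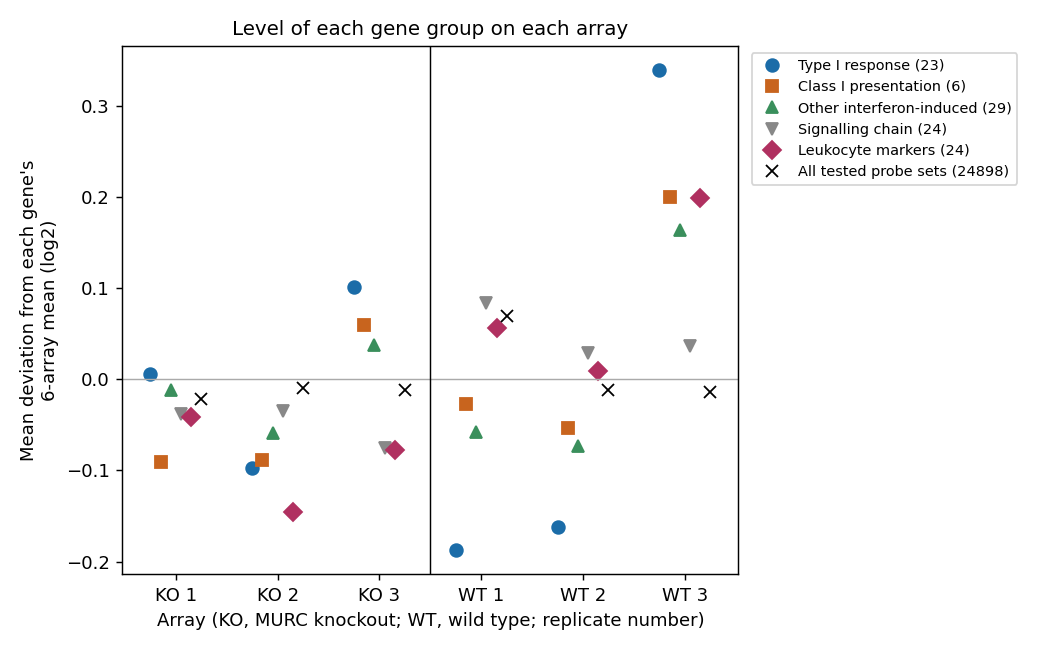
Mean deviation of each gene group (symbols, number of tested genes in brackets) from its genes' 6-array means on each array, on the log2 scale. Type I genes span -0.19 to 0.34 within the wild type, class I genes -0.05 to 0.20, and all tested probe sets -0.01 to 0.07.

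Set directly against each other, class I minus type I was -0.10, 0.01 and -0.04 in knockout replicates 1, 2 and 3 and 0.16, 0.11 and -0.14 in wild-type replicates 1, 2 and 3, as a difference of mean deviations. The contrast averaged -0.04 ± 0.05 for knockout and 0.04 ± 0.16 for wild-type arrays (SD, n = 3), so it overlapped between genotypes and reversed within the wild type. The distance of wild-type replicate 3 from the other wild-type arrays had a median of 0.50 over 23 type I genes and 0.175 over 6 class I genes. In knockout replicate 3 the order of these medians was the other way, at 0.07 and 0.16. The mean deviations of that array were not in this order, at 0.10 in the type I response and 0.06 in class I presentation. The 6 class I genes are few, and the difference between the groups was not tested.

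**Figure D3:**
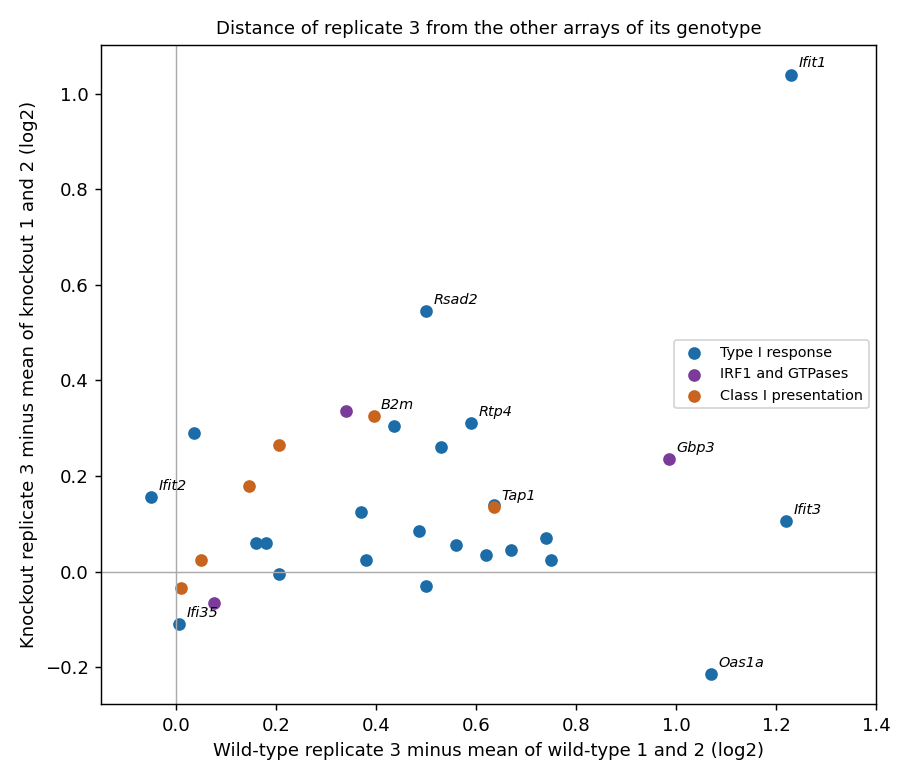
Each point is 1 tested member: the distance of wild-type replicate 3 from the mean of wild-type replicates 1 and 2 (horizontal, log2) against the same distance in the knockout (vertical, log2). Ifit1 is far out on both axes (1.23 and 1.04), Oas1a, Ifit3 and Gbp3 on the horizontal axis only.

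Of the 25 tested members with a promoter window, 13 held an ISRE core in it and 12 did not. The distance of wild-type replicate 3 had a median of 0.50 in the former, from 0.16 to 1.23, and 0.175 in the latter, from -0.05 to 0.74. Irf7, Oasl2 and Tap1 had no match and yet distances of 0.62, 0.74 and 0.64, which says only that these letters are not in this window. No test was made.

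Single arrays decided the direction of many members. Leaving out wild-type replicate 3 changed the sign of 10 of 32 differences, against 2 to 5 for any of the other 5 arrays, and 17 members changed sign with at least 1 array left out. Without wild-type replicate 3 the knockout mean was higher in 22 members and lower in 10, with a median of 0.11 over all members, 0.14 in the type I response and -0.0033 in class I presentation. In limma 0 then passed the adjusted threshold, and 5 had an unadjusted p under 0.05, all higher in the knockout, beside 3.95% of all probe sets (9.42% were lower). These were Oas1a, Oas2, Irf7, Ifit3 and Dhx58. As that array lay above the mean of the other wild-type arrays in 31 of 32 members, leaving it out must raise those differences. The split, the median and the 5 small p are therefore no result separate from its distance. Without knockout replicate 3 the split was 9 higher and 23 lower with a median of -0.10. Leaving out both arrays numbered 3, a choice made after seeing the data, gave 19 higher, 12 lower and a median of 0.05, with 0 past the adjusted threshold and 1 with an unadjusted p under 0.05.

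**Figure D4:**
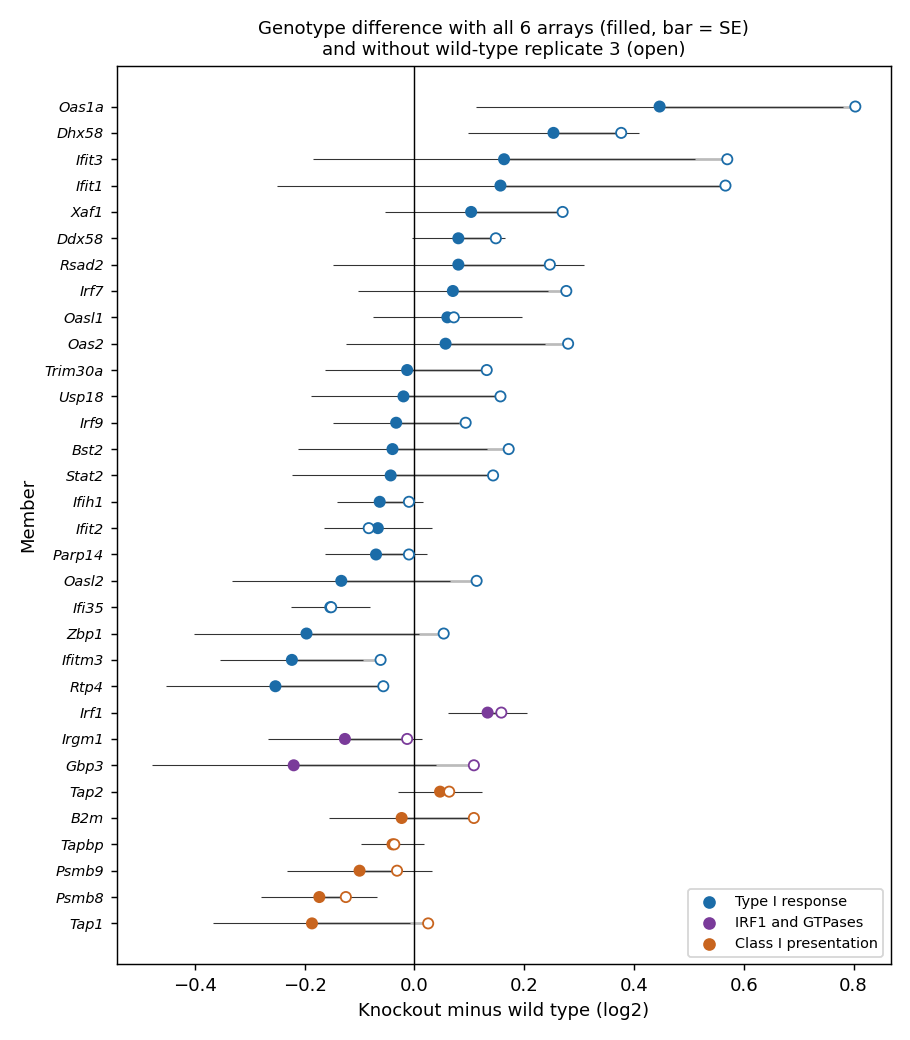
Knockout minus wild type for each tested member (log2) with all 6 arrays (filled, bar = SE) and without wild-type replicate 3 (open), coloured by role. Open points lie to the right of filled ones in all but Ifit2, and Ifit1, Ifit3 and Oas1a shift furthest. The shift restates how far wild-type replicate 3 lay from the other wild-type arrays.

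Other genes of the pathway, listed with earlier results of these data known, were measured beside the members. Of 36 further interferon-induced genes 29 were tested, 10 with a higher and 18 with a lower knockout mean (median -0.04). In limma 0 passed the adjusted threshold, and 0 higher and 1 lower had an unadjusted p under 0.05, where 4.71% and 9.02% of all probe sets did. That 1 was Psme1, a subunit of the proteasome activator PA28, at 9.27, 9.32 and 9.04 on knockout arrays and 9.60, 9.52 and 9.51 on wild-type arrays. The groups did not overlap, but the difference of -0.33 (SE 0.08) did not pass (limma adjusted p = 0.152).

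Next by p was Samd9l, at 6.05, 6.24 and 6.43 on knockout arrays and 5.73, 5.92 and 6.16 on wild-type arrays. Eif2ak2, the gene of the RNA-activated kinase PKR, measured 5.40, 5.49 and 5.48 on knockout arrays and 5.53, 5.62 and 5.63 on wild-type arrays. The genotypes overlapped in Samd9l, with a difference of 0.30, and not in Eif2ak2, with -0.14. The chaperone gene Calr measured 9.56, 9.56 and 9.47 on knockout arrays and 9.62, 9.63 and 9.57 on wild-type arrays. Adar, the gene of an RNA-editing enzyme, measured 6.15, 6.22 and 6.28 on knockout arrays and 6.06, 6.10 and 6.18 on wild-type arrays. Calr did not overlap and Adar did, with differences of -0.08 and 0.10, and the limma adjusted p of these 4 genes lay between 0.396 and 0.629. Genotypes did not overlap in 0 higher and 3 lower of the 29, beside 6.12% and 12.9% of all probe sets.

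Wild-type replicate 3 was the highest of the 6 in 12 of these 29 genes, against 15.1% of all probe sets. It was above the mean of the other wild-type arrays in 22, with a median distance of 0.10, against 0.46 in the members, and a range from -0.345 to 1.215. The distance was over 0.3 in 10 of 29. Ifi27l2a, the GTPase genes Iigp1, Gbp7 and Gbp5 and the chemokine gene Cxcl9, picked after their values were seen, lay 1.215, 0.995, 0.93, 0.825 and 0.70 above that mean on wild-type replicate 3. For Cxcl10, another chemokine gene of the list, the distance was -0.16.

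The signalling chain from receptor to transcription factor showed little of the array pattern. Its 24 tested genes deviated on average by 0.04 in wild-type replicate 3 and by 0.08 and 0.03 in wild-type replicates 1 and 2. Wild-type replicate 3 was the highest of the 6 in 6 of 24 (25.0%), beside 15.1% of all probe sets. Its distance from the other wild-type arrays had a median of -0.02, and was over 0.3 in 1 of 24, beside 6.17% of all probe sets. The knockout mean was higher in 5 and lower in 19, with a median of -0.09, where 14700 of all 24898 probe sets were lower, with a median of -0.04. In limma 0 passed the adjusted threshold, while 1 higher and 5 lower had an unadjusted p under 0.05, beside 4.71% and 9.02% of all probe sets. Genotypes did not overlap in 2 higher and 5 lower of the 24, beside 6.12% and 12.9% of all probe sets.

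Mavs, the mitochondrial adaptor of RIG-I and MDA5, measured 8.43, 8.36 and 8.38 on knockout arrays and 8.76, 8.70 and 8.69 on wild-type arrays. The groups were separated by more than their spread, with a difference of -0.33 (SE 0.06). It missed the threshold (limma adjusted p = 0.0717) and passed only when annotated probe sets alone were tested (limma adjusted p = 0.0279), where 2.01% of them did, with a range of 0.0279 to 0.266 over all alternatives. Tbk1, the kinase that acts downstream of Mavs, measured 6.60, 6.53 and 6.61 on knockout arrays and 6.26, 6.41 and 6.44 on wild-type arrays, a difference of 0.21 in the other direction (limma adjusted p = 0.309). Both genes were without overlap.

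Ifngr2, which encodes a chain of the interferon gamma receptor, measured 10.65, 10.62 and 10.43 on knockout arrays and 10.96, 10.78 and 10.75 on wild-type arrays. Ifnar1, which encodes a chain of IFNAR, measured 6.80, 6.82 and 6.60 on knockout arrays and 6.90, 6.99 and 6.92 on wild-type arrays. Myd88, the adaptor gene of Toll-like receptors, measured 6.23, 6.28 and 6.34 on knockout arrays and 6.75, 6.52 and 6.39 on wild-type arrays. All knockout arrays lay below all wild-type arrays in these 3 genes, which were named for their small p. The differences were -0.26, -0.20 and -0.27, with limma adjusted p of 0.242, 0.359 and 0.319.

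The interferons themselves were dim. Of 5 measured, Ifnb1, Ifna4, Ifnk and Ifne were below the filter. Ifng was just above it, at 3.82, 4.02 and 4.14 on knockout arrays and 4.12, 4.02 and 3.92 on wild-type arrays, and its value in wild-type replicate 3 was the lowest of that genotype.

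Markers of leukocytes were also raised on wild-type replicate 3, but had another profile on the other arrays. Their mean deviations were -0.04, -0.15 and -0.08 in knockout replicates 1, 2 and 3. In wild-type replicates 1, 2 and 3 they were 0.06, 0.01 and 0.20. Of 24 tested leukocyte markers, wild-type replicate 3 was above the mean of the other wild-type arrays in 18, by a median of 0.19. It was so in 9616 of all 24898 probe sets. That array was the highest of the 6 in 15 of the 24 markers, against 15.1% of all probe sets. The distance was over 0.3 in 8 of the 24 (33.3%), against 6.17% of all probe sets. The knockout mean was lower in 20 of the 24 markers, and in 14700 of all probe sets. In limma 0 passed the adjusted threshold, and 0 higher and 5 lower had an unadjusted p under 0.05, beside 4.71% and 9.02% of all probe sets. These 5 were C1qb, H2-Aa, Siglech, H2-Eb1 and H2-Ab1. Genotypes did not overlap in 0 higher and 3 lower of the 24 (C1qb, H2-Aa and Siglech), beside 6.12% and 12.9% of all probe sets. The summed linear signal of the markers was 2400 to 2762 on knockout and 2753 to 3432 on wild-type arrays, the highest in wild-type replicate 3. Some of these markers, such as Cd74, H2-Aa and H2-Ab1, are themselves raised by interferon gamma. The B and NK cell markers Cd79a, Ms4a1, Nkg7 and Klrb1c, with Cd3g and S100a8, were below the filter. Of 15 endothelial markers, wild-type replicate 3 was above the mean of the other wild-type arrays in 2, with a median distance of -0.16, where that of all probe sets was -0.05. Heart muscle markers deviated by only -0.04 on that array. The part of these cell types in the pattern was not tested. Wild-type replicate 3 was the only array labelled 12 weeks, so that age and this array cannot be told apart. Knockout replicate 3 was the only knockout array labelled 13 weeks, the others being 11, so within the knockout the same holds for it. Ages were also not balanced between the genotypes.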

How the data were processed

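Log2 values, as the authors deposited them, covered 35556 probe sets on 6 arrays. MAS5 is listed per the submitters' processing notes, with no step attached. How probe sets were summarized and scaled, and on which genome build they were designed, is not given in sources used here. That the values are log2 was read from their range, 0.46 to 13.72. Dim signals can be compressed by background, and the number of arrays limits the precision. The platform annotation paired 21789 probe sets with 1 symbol, 1621 had more than 1, and 12146 are unnamed here. Symbols were updated through RefSeq gene identifiers for 21698.

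Values were used as deposited. Probe sets with a mean at or above the 30th percentile (24898) were fitted in R 4.3.3 with limma 3.58.1 (lmFit, eBayes with an intensity trend), knockout minus wild type, two-sided, with Benjamini-Hochberg adjustment over all of them and a threshold of 0.05. The fit was tested on simulated data. The members and gene lists were chosen with earlier results of these data known. Values on every array are given for Irf7, Stat2, Isg15, Ifit1, Ifit3, B2m, H2-K1, H2-D1, Tap1 and Psmb8 (Isg15, H2-K1 and H2-D1 share probe sets with other symbols, so no value is given), for the members with the smallest p (5 of the type I response, 3 of each other group) and for the 5 with the largest spread, and for the pathway lists up to 5 genes each with the smallest p. Other members are given by ranges or distances. Over all tested probe sets same-numbered arrays did not deviate together (correlations of -0.059, 0.021 and -0.057), so the main fit did not pair them. These correlations cannot show whether such arrays share something that acts on the members alone. Alternatives covered normalization, filter, probe sets tested, age, replicate block, array weights, trend, averaging probe sets and leaving out arrays.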

Additional observations from a re-analysis of the deposited data

How the results depend on the processing

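No member passed the adjusted threshold in limma under any of the 17 alternatives. The count of all probe sets past it, 1 as reported, was 130 after quantile normalization, 105 after median centring, 48 with the stricter filter, 361 among annotated probe sets, 34 with age as a covariate, 126 with array weights, and 0 with the replicate block or without both arrays numbered 3. It ran from 0 to 12 with single arrays left out. With the replicate block, members had a median difference of -0.04, which a balanced block cannot change, and 0 past the threshold. The block changed the precision of single members. The SE fell from 0.41 to 0.10 in Ifit1 and from 0.13 to 0.05 in B2m, and rose from 0.07 to 0.08 in Irf1. The labels do not say whether same-numbered arrays belong together. Members with an unadjusted p under 0.05 and higher in the knockout, 0 as reported, were 1 after quantile normalization, 1 without both arrays numbered 3, and from 0 to 5 with single arrays left out. The median of IRF1 and the GTPases ran from -0.24 to 0.11 with single arrays left out.

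Small differences changed sign. That of B2m was 0.0144 after quantile normalization and 0.0277 with age as a covariate, which also gave -0.04 for Irf7 and -0.0387 for Ifit3. Rsad2 had -0.0055 with array weights, and Irf1 -0.0183 as the mean of its probe sets. Without both arrays numbered 3, Stat2 had 0.13 and Gbp3 0.03. With single arrays left out the ranges were -0.13 to 0.11 for B2m, -0.19 to 0.57 for Ifit1, -0.12 to 0.26 for Rsad2, -0.0633 to 0.28 for Irf7, -0.20 to 0.57 for Ifit3, -0.25 to 0.14 for Stat2, -0.33 to 0.025 for Tap1 and -0.42 to 0.11 for Gbp3. The cause was not tested. The median distance of wild-type replicate 3, examined after seeing the data, was 0.40 to 0.52 over all members, 0.49 to 0.56 over type I genes and 0.175 to 0.23 over class I genes across scalings, filters and averaging.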

Other observations

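Some members are present on the array only through probe sets that carry several gene symbols, from which no gene is named. There are 6 such probe sets. Wild-type replicate 3 was above the mean of the other wild-type arrays in 6 of 6, by 0.29 to 0.93 on the log2 scale, and it was the highest of the 6 arrays in 5. The genotypes overlapped in every one. These probe sets were not used in any count above, and the array pattern in them was looked for after it had been seen in the members.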
